A study of Mus musculus with 9 samples.

Results

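The genes described here make serine, pass its carbon to folate, or belong to the amino acid response that the transcription factor ATF4 directs. They were the 10 genes Phgdh, Psat1, Psph, Shmt1, Shmt2, Mthfd2, Asns, Atf4, Atf3 and Ddit3, found in the platform annotation by symbol. The list itself was drawn up with earlier results of these data known, so its counts describe it and do not test it. All 10 were on the arrays, among 12393 genes in all, with 24 of the 22690 probe sets measured. Of these genes 3 had 1 probe set and 7 had several, and 2 further probe sets that name Phgdh together with a second gene were not used. The 3 cell lines were SV5-NN4, SV5 and NIH 3T3, each measured on 3 arrays. SV5-NN4 is a stable clone of NIH 3T3 mouse embryo fibroblasts that carries both SV40 large T antigen and wild-type Nras. SV5 is a stable clone that carries SV40 large T antigen alone, so both clones share the viral oncoprotein. NIH 3T3 is the untransformed parent line, labelled wild type. All 3 lines grew in medium with calf serum, and no source used here names the promoters that drive the transgenes. Each transgenic line is 1 clone, so clonal differences and effects of T antigen or N-ras cannot be told apart.

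Serine is made from a glycolytic intermediate by the phosphorylated pathway, in which PHGDH, PSAT1 and PSPH act in turn. Serine hydroxymethyltransferases (SHMT1 in the cytosol, SHMT2 in mitochondria) move a carbon unit from serine to tetrahydrofolate, and MTHFD2 oxidises the product in mitochondria for purine, thymidylate and formate supply. When amino acids run short or the endoplasmic reticulum is stressed, kinases phosphorylate the initiation factor eIF2alpha, which favours translation of Atf4 mRNA. ATF4 then raises transcription of serine pathway, Asns, Atf3 and Ddit3 genes, and because its control is largely translational, the Atf4 transcript need not follow its activity.

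ATF4 binds, with C/EBP partners, a composite element whose core reads TGATGNAA on either strand. RefSeq promoter windows of 250 bases before and 50 after a start were searched for these letters on both strands, and for CACGTG, the E-box bound by Myc proteins, which reads the same on both strands. Among the 10 members, 2 had a TGATGNAA match, Asns and Atf3, while 4.51% of all 27025 genes with a window had one (3.97% of 32851 windows). The cytosolic aminoacyl-tRNA synthetases had it in 5 of 13 genes with a window and the other Atf4 target genes in 10 of 27. None of the 10 members had CACGTG in its window, so no match overlapped another there, and 8.09% of all genes with a window hold it. The upstream 250 bases are printed for the 2 members with a match and for Shmt2, the member called between the 2 clones. Capitals mark the TGATGNAA match, which lies at bases -23 to -16 from the Asns start and, as TTGCATCA, at bases -110 to -103 from the Atf3 start. All 3 are on the minus strand of GRCm38.p6, written in the direction of the gene, at chr6:7693210-7693459 for Asns, chr1:191183334-191183583 for Atf3 and chr10:127522445-127522694 for Shmt2.
Asns: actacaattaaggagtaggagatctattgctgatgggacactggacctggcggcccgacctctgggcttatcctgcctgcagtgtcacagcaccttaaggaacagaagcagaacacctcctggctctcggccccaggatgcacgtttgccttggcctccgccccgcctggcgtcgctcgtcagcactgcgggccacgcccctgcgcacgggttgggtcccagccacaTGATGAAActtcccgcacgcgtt
Atf3: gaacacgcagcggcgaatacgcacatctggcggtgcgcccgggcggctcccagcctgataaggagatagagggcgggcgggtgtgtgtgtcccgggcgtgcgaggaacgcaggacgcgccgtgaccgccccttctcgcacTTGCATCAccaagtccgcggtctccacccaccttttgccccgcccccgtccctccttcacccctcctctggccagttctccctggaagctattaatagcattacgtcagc
Shmt2: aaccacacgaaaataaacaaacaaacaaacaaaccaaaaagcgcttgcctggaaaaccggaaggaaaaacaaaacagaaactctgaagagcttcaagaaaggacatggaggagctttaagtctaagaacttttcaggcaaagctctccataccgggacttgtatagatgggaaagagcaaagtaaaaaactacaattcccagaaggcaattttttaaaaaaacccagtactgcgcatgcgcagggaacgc

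Median intensities were 56.2 to 62.35 per array, but upper quartiles ran from 165.2 to 239.7 and were highest in replicate 3 of each line (239.7 in SV5-NN4, 235 in SV5 and 218.7 in NIH 3T3). Values below are log2(intensity + 1), which slightly understates differences at dim probe sets, and 9 bacterial control probe sets at 3.18 to 4.25 mark the floor. Levels of different probe sets are not compared, since probes differ in brightness. On average, all 8 fibroblast markers lay at or above the median probe set level of 5.93 in every line, and 0 of 5 epithelial and 0 of 4 endothelial markers did. Of 4 leukocyte markers 2 did in each line, with no array above 7.11. The summed intensity of the fibroblast markers was 22840 to 36030 in SV5-NN4, 33690 to 51710 in SV5 and 23980 to 47120 in NIH 3T3. For Nras, the added gene, the brightest probe set averaged 8.24 in SV5-NN4, 8.18 in SV5 and 7.46 in NIH 3T3. In the same order, another averaged 7.79, 7.74 and 6.77, and a further one 7.25, 6.98 and 7.01. None differed between the clones beyond the spread, so Nras gave no check of the clone labels. The differences were 0.06, 0.05 and 0.27 (adjusted p of 0.96, 0.98 and 0.55 in limma). Against NIH 3T3 the probe set at 7.79 was called higher in SV5-NN4 (1.02, adjusted p = 0.046 in limma). In SV5 it differed by 0.97 and was not called (adjusted p = 0.12 in limma). Arrays of equal replicate number deviated together, so each comparison rests on a limma fit that blocks on the number, and p-values are adjusted over all probe sets.

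**Figure D1:**
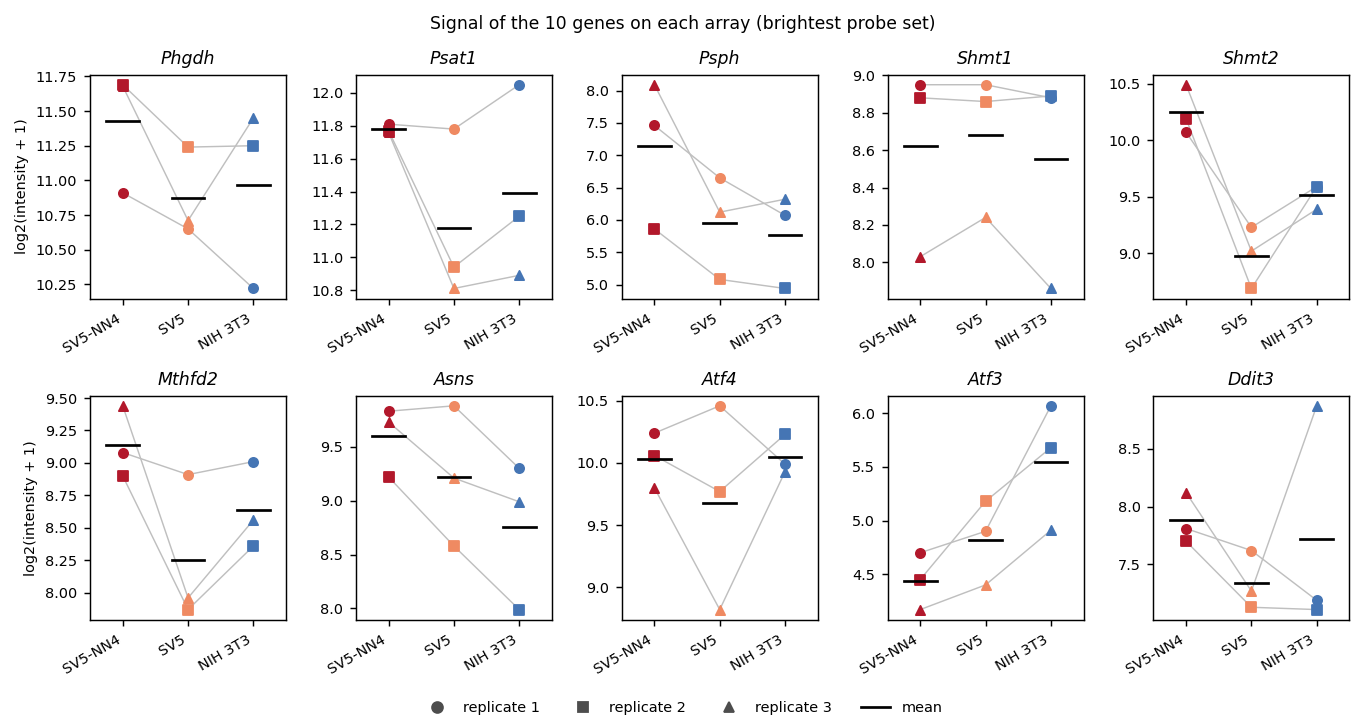
Signal of each of the 10 genes at its brightest probe set, as log2(intensity + 1), on the 3 arrays each of SV5-NN4, SV5 and NIH 3T3. Points are arrays, shapes are replicate numbers, grey lines join equal numbers and black bars are means. SV5-NN4 had the highest mean of the 3 lines for 7 genes and SV5 the lowest for 6.

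SV5-NN4 was set against SV5 to ask what wild-type Nras changes in the presence of T antigen. Shmt2, the mitochondrial hydroxymethyltransferase, rose, and no other member passed the test. The difference was positive at 22 of 24 member probe sets, with a median of 0.53 on the log2 scale, while the median over all 22690 probe sets was 0.01 and 51.9% of them were positive. Of the 24, 1 was called higher at an adjusted p under 0.05, and 0 lower, where 0.309% of all probe sets were called higher and 0.555% lower. At an unadjusted p under 0.05 in limma, 12 of the 24 were higher and 0 lower, against 6.64% and 6.34% of all. The arrays of the 2 lines did not overlap, with SV5-NN4 higher, at 5 of the 24, against 4.21% of all. Probe sets of 1 gene are not independent. At the brightest probe set of each gene, 8 of 10 were positive, against 52.2% of genes. At an unadjusted p under 0.05 in limma 5 of the 10 were higher and 0 lower, against 7.32% and 7.33% of genes.

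Shmt2 at its brightest probe set read 10.07, 10.19 and 10.49 in SV5-NN4 (replicates 1, 2 and 3), against 9.23, 8.69 and 9.02 in SV5. All SV5-NN4 arrays were above all SV5 arrays. The transcript rose 2.41-fold, a log2 difference of 1.27 (SE 0.18, 95% interval 0.85 to 1.69, adjusted p = 0.034 in limma). The other 3 Shmt2 probe sets had differences of 0.77, 0.47 and 0.64, each positive in 3 of 3 pairs and none called (adjusted p of 0.085 to 0.46). The call was lost without the replicate block (adjusted p = 0.13) and for the mean of the 4 probe sets (difference 0.79, adjusted p = 0.055). It held in only 2 of 9 fits that left out an array, those without NIH 3T3 replicate 1 or 3, and over the 9 the difference lay between 1.12 and 1.44, with a highest adjusted p of 0.24.

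Psph, the phosphatase that releases serine in the last step, read 7.46, 5.86 and 8.09 in SV5-NN4, against 6.65, 5.08 and 6.12 in SV5. The lines overlapped, but each SV5-NN4 array was above the SV5 array of its number. Its difference of 1.19 (SE 0.25, 95% interval 0.61 to 1.77) did not pass, with an adjusted p of 0.085 in limma. Psat1, the aminotransferase of the pathway, read 11.81, 11.77 and 11.76 in SV5-NN4, against 11.78, 10.94 and 10.81 in SV5. Here the replicate 1 arrays were nearly equal (0.03 apart) and the other pairs 0.83 and 0.95 apart. The fitted difference was 0.6 (SE 0.22, adjusted p = 0.29 in limma), and 0.57 at the second Psat1 probe set. Phgdh, the dehydrogenase that commits carbon to serine, read 10.91, 11.69 and 11.68 in SV5-NN4, against 10.65, 11.24 and 10.71 in SV5. Its 4 probe sets differed by 0.26 to 0.56, all positive in each pair, with adjusted p of 0.14 to 0.63. Phgdh is represented only by probe sets of the type Affymetrix marks as matching more than 1 sequence. The brightest Shmt2 probe set is of that type too, as are those at 0.77 and 0.47, but not the one at 0.64. So are the brightest Atf4 and the dimmer Asns probe set, which makes 9 of the 24.

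Mthfd2, the mitochondrial folate dehydrogenase, read 9.08, 8.9 and 9.44 in SV5-NN4, against 8.91, 7.87 and 7.96 in SV5. Only SV5 replicate 1 reached the SV5-NN4 range. The difference was 0.89 (SE 0.23, 95% interval 0.35 to 1.43, adjusted p = 0.14 in limma), and 0.76 at its second probe set. The probe sets of Shmt1, the cytosolic hydroxymethyltransferase, disagreed. Its brightest read 8.95, 8.88 and 8.03 in SV5-NN4, against 8.95, 8.86 and 8.24 in SV5. That is a difference of -0.06 (95% interval -0.36 to 0.23). Its other probe sets differed by 0.4, 0.93 and 0.08, the last one near the floor. Those at 0.4 and 0.93 were positive in 3 of 3 pairs (adjusted p of 0.3 and 0.11 in limma). At 0.93 the arrays of the clones did not overlap. None of the 4 was called.

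Among the amino acid response genes none was called between the clones. Asns, which makes asparagine, read 9.83, 9.22 and 9.73 in SV5-NN4, against 9.88, 8.58 and 9.21 in SV5. The replicate 1 arrays differed by -0.04 and the other pairs by 0.64 and 0.52, giving 0.37 (95% interval -0.03 to 0.78, adjusted p = 0.44 in limma), and 0.76 at the second probe set. Ddit3, which encodes the stress factor CHOP, read 7.81, 7.7 and 8.12 in SV5-NN4, against 7.62, 7.13 and 7.27 in SV5. These arrays did not overlap, yet the difference of 0.54 had a 95% interval of -0.3 to 1.37. The shared estimate of the spread takes in NIH 3T3, where replicate 3 stood apart at 8.87. Atf4 differed by 0.35, 0.2 and 0.1 at its 3 probe sets, with adjusted p of 0.65 to 0.97. Atf3, a stress-induced repressor and activator of the same family, read 4.7, 4.45 and 4.17 in SV5-NN4, against 4.9, 5.18 and 4.4 in SV5. It was the only member below 0 in all 3 pairs (difference -0.38, adjusted p = 0.44 in limma).

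**Figure D2:**
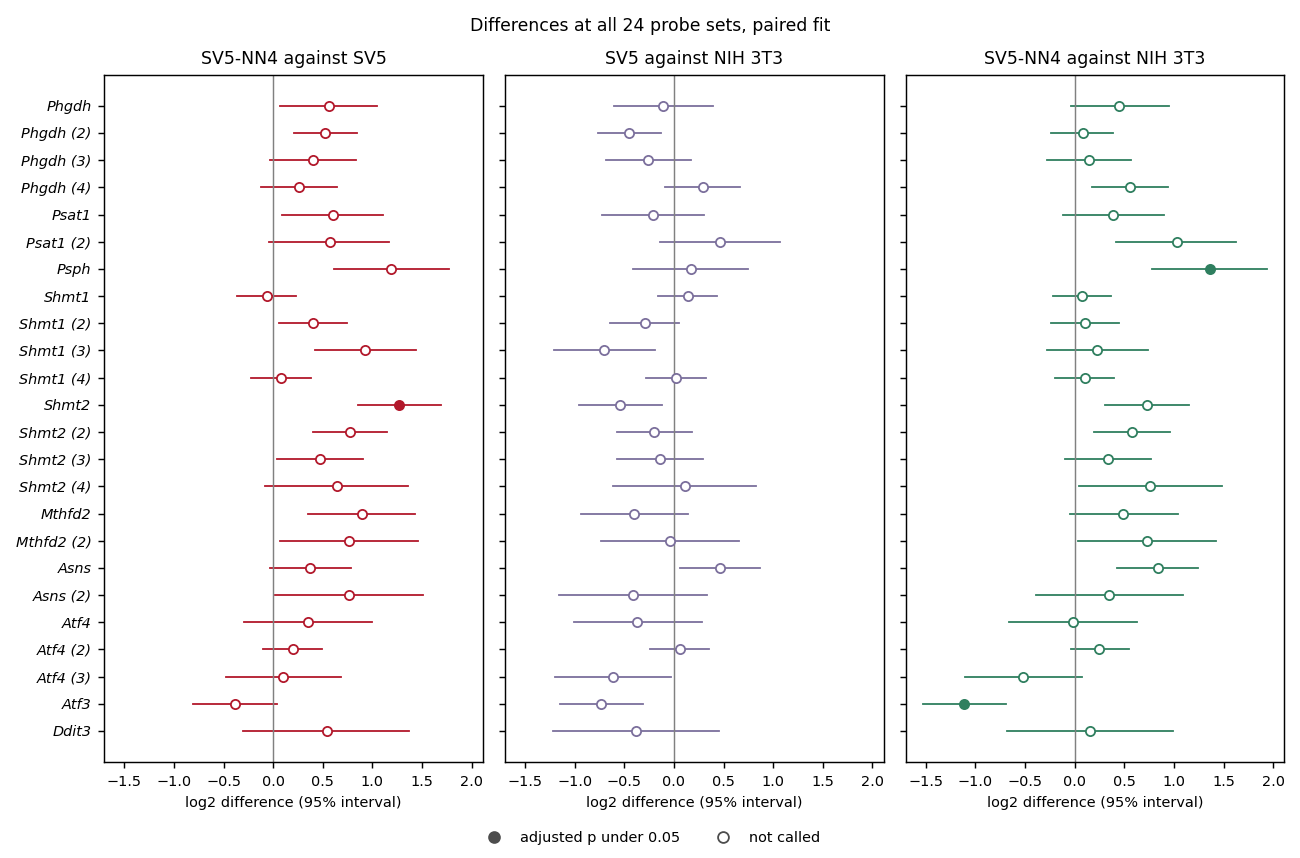
Log2 differences at all 24 probe sets in the 3 comparisons, with 95% intervals from the paired limma fit. Filled points passed an adjusted p under 0.05: Shmt2 at 1.27 in SV5-NN4 against SV5, and Psph at 1.36 and Atf3 at -1.11 in SV5-NN4 against NIH 3T3. A number in brackets marks a dimmer probe set of the same gene.

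The size of the difference between the clones depended on the pair. The median over the 24 probe sets was 0.19 for the replicate 1 arrays, 0.46 for replicate 2 and 0.85 for replicate 3, with 19, 22 and 22 probe sets above 0. Over all probe sets the same medians were 0, 0 and 0.01. The log2 ratio of 3' to 5' Actb probe sets, a sign of RNA integrity, ran from 2.42 to 5.06 over the 9 arrays, and that of Gapdh from 2.36 to 5.21. Every array thus had much more 3' than 5' signal for both genes. The Actb ratio differed between SV5-NN4 and SV5 by 0.34, 0.3 and 1.24 in these pairs. For Gapdh it differed by 0.21, 0.49 and 0.69. Both ratios were thus higher in SV5-NN4 in every pair, and their part in the member differences was not tested. The summed fibroblast markers were lower in SV5-NN4, where Thy1 fell by 1.39 (adjusted p = 0.0056 in limma) and Col3a1 fell by 1.05 (adjusted p = 0.034). The Thy1 call held without the block (adjusted p = 0.023) and the Col3a1 call did not (0.31), and the part of these markers was not tested either.

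**Figure D3:**
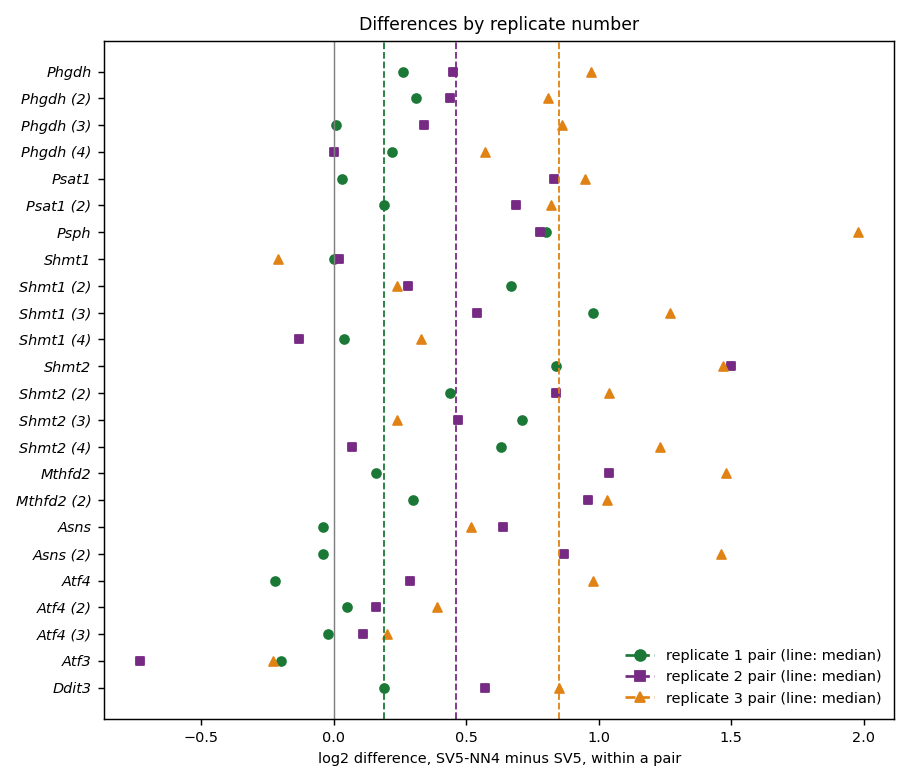
Log2 difference of SV5-NN4 minus SV5 within each replicate number at the 24 probe sets, with dashed lines at the medians of 0.19, 0.46 and 0.85. The replicate 3 median is the highest, and Atf3 is left of 0 in all 3 pairs.

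SV5 was set against NIH 3T3 to ask what T antigen alone changes. No member was called, where 0.0441% of all probe sets were called higher and 0.0176% lower. At an unadjusted p under 0.05 in limma, 1 of the 24 was higher and 5 lower, against 8.56% and 5.65% of all. The median difference of the 24 was -0.2, against -0.04 over all probe sets, and 8 of the 24 were positive, against 43.7% of all. At the brightest probe set of each gene, 3 of 10 were positive, against 44.8% of genes. At that unadjusted p 1 of the 10 was higher and 2 lower, against 9.08% and 5.95% of genes. Only 2 probe sets did not overlap, both lower in SV5, against 2.39% of all. They belong to Shmt2 and Phgdh. Shmt2 at its brightest probe set read 9.23, 8.69 and 9.02 in SV5, against 9.59, 9.59 and 9.39 in NIH 3T3. That difference was -0.54 (95% interval -0.96 to -0.12, adjusted p = 0.25 in limma). The non-overlapping Phgdh probe set, not its brightest, differed by -0.45 (adjusted p = 0.22), while the other 3 ran from -0.26 to 0.29.

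Atf3 had the lowest value of the 24. It read 4.9, 5.18 and 4.4 in SV5, against 6.07, 5.68 and 4.91 in NIH 3T3, a difference of -0.73 (SE 0.18, adjusted p = 0.16 in limma) with each pair below 0. Asns probe sets disagreed, at 0.46 for the brighter and -0.41 for the dimmer. So did those of Atf4, at -0.37, 0.06 and -0.61, and of Psat1, at -0.21 and 0.46. Ddit3 read 7.62, 7.13 and 7.27 in SV5, against 7.19, 7.11 and 8.87 in NIH 3T3. Its difference of -0.38 turned to 0.15 without NIH 3T3 replicate 3. That array also had the highest 3' to 5' ratios of the 9, at 5.06 for Actb and 5.21 for Gapdh on the log2 scale. In the replicate 3 pair SV5 minus NIH 3T3 was -2.65 and -2.84 for these ratios, and their part in the Ddit3 value was not tested.

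SV5-NN4 and NIH 3T3 differ by both transgenes. Between them Psph rose and Atf3 fell. Of the 8 fibroblast markers 7 were below 0 here, and Thy1 fell by 2.09 (adjusted p = 0.0018 in limma, 0.0014 without the block), and their part was not tested. This comparison shares its SV5-NN4 arrays with the first and its NIH 3T3 arrays with the second. In the replicate 3 pair SV5-NN4 minus NIH 3T3 was -1.4 for the 3' to 5' ratio of Actb and -2.16 for that of Gapdh, and their part was not tested. Of the 24 probe sets, 1 was called higher and 1 lower, where 1.14% of all were called higher and 0.516% lower. At an unadjusted p under 0.05 in limma, 8 of the 24 were higher and 1 lower, against 10% and 7.1% of all. The median of the 24 was 0.34, against -0.03 over all, and 21 of the 24 were positive, against 44.9% of all. At the brightest probe set of each gene, 8 of 10 were positive, against 44.9% of genes. At that unadjusted p 3 of the 10 were higher and 1 lower, against 11.3% and 8.04% of genes.

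Psph read 7.46, 5.86 and 8.09 in SV5-NN4, against 6.07, 4.94 and 6.32 in NIH 3T3. The ranges overlapped, with SV5-NN4 replicate 2 below NIH 3T3 replicates 1 and 3, while the pairs differed by 1.39, 0.92 and 1.78. Psph rose by 1.36 (2.57-fold, SE 0.25, 95% interval 0.78 to 1.94, adjusted p = 0.049 in limma). This call was lost without the block (adjusted p = 1) and held in 1 of 9 fits that left out an array, the one without SV5 replicate 3. Over the 9 the difference lay between 1.06 and 1.57, with a highest adjusted p of 0.22. Centring the arrays, a pseudocount of 16 and a fit of only these lines also ended it (adjusted p of 0.052, 0.094 and 0.094).

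Atf3 read 4.7, 4.45 and 4.17 in SV5-NN4, against 6.07, 5.68 and 4.91 in NIH 3T3. No array overlapped, and SV5-NN4 replicate 3 lay within the floor of 3.18 to 4.25. The measured difference was -1.11 (SE 0.18, adjusted p = 0.04 in limma), and -0.77 with a pseudocount of 16. With SV5-NN4 this close to the floor, its size is not settled. The call was lost without the block (adjusted p = 0.67) and held without NIH 3T3 replicates 1 or 3 only, 2 of 9 such fits. Over these 9 the difference lay between -1.26 and -0.94, with a highest adjusted p of 0.2. A fit of only these lines, that pseudocount and quantile normalization ended it too (adjusted p of 0.11, 0.069 and 0.057).

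The remaining members did not pass against NIH 3T3. Asns at its brightest probe set read 9.83, 9.22 and 9.73 in SV5-NN4, against 9.3, 7.99 and 8.99 in NIH 3T3, a difference of 0.84 (95% interval 0.43 to 1.24, adjusted p = 0.068 in limma). Its dimmer probe set gave 0.35. Shmt2 differed by 0.73, 0.58, 0.34 and 0.76 at its 4 probe sets (adjusted p of 0.1 to 0.41), and the arrays of the brightest did not overlap. Mthfd2 differed by 0.49 and 0.73, and Psat1 by 0.39 and 1.03. Phgdh ran from 0.08 to 0.56 and Shmt1 from 0.07 to 0.23. Atf4 had differences of -0.02, 0.25 and -0.52, and Ddit3 0.15.

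Order of the lines at the brightest probe set was SV5-NN4, NIH 3T3, SV5 for Phgdh, Psat1, Shmt2, Mthfd2 and Ddit3, and SV5-NN4, SV5, NIH 3T3 for Psph and Asns. It was SV5, SV5-NN4, NIH 3T3 for Shmt1 and NIH 3T3, SV5-NN4, SV5 for Atf4. No neighbours in the order of any member were called apart, and the calls of Shmt2, Psph and Atf3 are between the ends. For Shmt2 the means were 10.25 ± 0.21 in SV5-NN4, 8.98 ± 0.27 in SV5 and 9.52 ± 0.12 in NIH 3T3 (SD, n = 3). For Psph they were 7.14 ± 1.15 in SV5-NN4, 5.95 ± 0.8 in SV5 and 5.77 ± 0.74 in NIH 3T3 (SD, n = 3). Atf3 was lowest in SV5-NN4, at 4.44 ± 0.27 in SV5-NN4, 4.82 ± 0.39 in SV5 and 5.55 ± 0.59 in NIH 3T3 (SD, n = 3).

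Related genes were taken from 6 lists, with 1 probe set per gene. Folate and one-carbon enzymes had 19 of 30 entries measured. Against SV5, 0 were called, 4 were higher and 0 lower at an unadjusted p under 0.05 in limma, and the median was 0.14. The gene background in this comparison was 0.371% called higher, 7.32% higher and 7.33% lower at an unadjusted p under 0.05, and a median of 0.01. Against NIH 3T3 the list had a median of 0.41 with 16 of 19 above 0, where 44.9% of all genes were positive. Of these 2 rose, against 1.27% of all genes: Ahcy, which clears S-adenosylhomocysteine in the methionine cycle, and Gart, a purine synthesis enzyme that uses formyl-folate. Ahcy read 9.96, 9.15 and 10.76 in SV5-NN4, against 9.35, 7.92 and 9.61 in NIH 3T3, and rose by 1 (adjusted p = 0.045 in limma). Gart read 7.43, 7.6 and 9.01 in SV5-NN4, against 6.32, 6.46 and 8.34 in NIH 3T3, and rose by 0.98 (adjusted p = 0.038 in limma). The ranges of both genes overlapped between the lines, while each was positive in 3 of 3 pairs. The other Gart probe sets differed by 0.26 and 0.49. SV5 against NIH 3T3 gave 0 called in this list and a median of 0.15.

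The cytosolic aminoacyl-tRNA synthetases, which charge tRNAs and include many ATF4 targets, had 18 of 20 entries measured. Against SV5, 17 of 18 were above 0, where 52.2% of all genes were, with a median of 0.28 and 0 called. At an unadjusted p under 0.05 in limma 3 were higher, where 7.32% of genes were. SV5 against NIH 3T3 gave 16 of 18 above 0, where 44.8% of all genes were, and a median of 0.23, with 0 called, where 0.0323% of genes were called higher. SV5-NN4 against NIH 3T3 gave a median of 0.55, with 3 called higher and 0 lower, where 1.27% of genes were called higher. At an unadjusted p under 0.05 in limma 9 were higher, where 11.3% of genes were. Vars, the valine enzyme, read 8.28, 7.84 and 8.98 in SV5-NN4, against 6.64, 7.04 and 7.45 in NIH 3T3, with no overlap, and rose by 1.32 (adjusted p = 0.046 in limma). Iars, the isoleucine enzyme, rose by 0.81 and Wars, the tryptophan enzyme, by 0.68 (adjusted p of 0.047 and 0.049 in limma). The arrays of both overlapped between the lines. The called Wars probe set is of the type marked as matching more than 1 sequence. The other Iars probe set differed by 1.11, and the other Wars probe sets by 0.73, 0.03 and 0.3.

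The 28 measured of 31 other Atf4 target genes had 0 called in all 3 comparisons. Their median was 0.22 in SV5-NN4 against SV5, with 20 above 0, where 52.2% of all genes were. At an unadjusted p under 0.05 in limma 6 were higher and 0 lower, against 7.32% and 7.33% of genes. In SV5 against NIH 3T3 the median was -0.08, with 13 above 0, where 44.8% of genes were. At that threshold 3 were higher and 3 lower, against 9.08% and 5.95% of genes. In SV5-NN4 against NIH 3T3 the median was 0.31, with 20 above 0, where 44.9% of genes were. Here 6 were higher and 2 lower at that threshold, against 11.3% and 8.04% of genes. The highest values between the clones, named after they were seen, were 1.4 for Cth, a transsulfuration enzyme, and 1.36 each for Chac1, a glutathione-degrading enzyme, and Trib3, a pseudokinase that restrains ATF4 (adjusted p of 0.16, 0.082 and 0.1 in limma). The 8 genes below 0 reached -0.69, for Ndrg1 (adjusted p = 0.51 in limma). Amino acid transporters had 10 of 12 measured and 0 called, with 2 higher and 2 lower between the clones at an unadjusted p under 0.05, where 7.32% of genes were higher and 7.33% lower. The counts were 1 higher and 0 lower in SV5 against NIH 3T3, against 9.08% and 5.95% of genes. They were 3 higher and 1 lower in SV5-NN4 against NIH 3T3, against 11.3% and 8.04% of genes. Medians of the transporters were 0.13, 0 and -0.03 in the 3 comparisons. These counts and medians include Slc7a1 and Slc7a11, whose mean levels of 4.14 lay within the floor of 3.18 to 4.25.

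Of 14 eIF2alpha kinases and regulators 11 were measured, with medians of 0.26 in SV5-NN4 against SV5, 0.38 in SV5 against NIH 3T3 and 0.23 in SV5-NN4 against NIH 3T3, and with 1, 0 and 1 called, all higher, where 0.371%, 0.0323% and 1.27% of genes were called higher. Between the clones 5 of the 11 were below 0, where 47.8% of all genes were. At an unadjusted p under 0.05 in limma 3 were higher and 2 lower, where 7.32% of genes were higher and 7.33% lower. The 2 lower ones, named after their values were seen, were Eif2ak3 at -0.78 and Impact at -0.76 (adjusted p of 0.15 and 0.1 in limma). The 3 higher ones were Eif2b2, given below, Ppp1r15a at 0.38 and the kinase gene Eif2ak1 at 0.37 (adjusted p of 0.31 and 0.29 in limma for the last 2). Eif2ak3 encodes the endoplasmic reticulum kinase PERK, and Impact an inhibitor of the kinase GCN2. Eif2b2, a subunit of the exchange factor eIF2B, rose by 0.8 in SV5-NN4 against SV5 (9.43, 9.51 and 9.4 in SV5-NN4, against 8.84, 8.71 and 8.39 in SV5, adjusted p = 0.043 in limma). The called Eif2b2 probe set is of the type marked as matching more than 1 sequence, and the other Eif2b2 probe sets differed by 0.33 and 0.41. Eif2b1, a further subunit, rose by 0.93 in SV5-NN4 against NIH 3T3 (adjusted p = 0.032 in limma). The list called endoplasmic reticulum chaperones also holds the transcription factors Xbp1 and Atf6 and the protein degradation genes Edem1 and Sel1l. Its 18 genes had a median of -0.13 between the clones, with 2 above 0, where 52.2% of all genes were. Of them 0 were called and 1 was lower at an unadjusted p under 0.05 in limma, where 7.33% of genes were. That gene was Xbp1, not a chaperone, at -0.83 (adjusted p = 0.17 in limma). The chaperone medians were 0.14 in SV5 against NIH 3T3 and 0.06 in SV5-NN4 against NIH 3T3, with 0 called in both. Leaving out SV5 replicate 3 moved the medians between the clones to 0.07 for the other Atf4 targets, 0.14 for the synthetases and 0.11 for the eIF2alpha regulators, which was 0.13 without SV5-NN4 replicate 1. The chaperone median was -0.01 without SV5 replicate 2 or SV5-NN4 replicate 1, and lay between -0.26 and -0.01 over the 9 such fits. The transporter median lay between 0.01 and 0.21, lowest without SV5 replicate 2, and the folate median between 0.14 and 0.22, highest without that array. Each pathway call of these lists was lost without the block, with adjusted p of 0.29 or more in limma. Each held in only 1 or 2 of 9 fits that left out an array, with adjusted p up to 0.31 in those fits. All calls of these lists against NIH 3T3 were also lost in a fit of only the 2 lines.

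**Figure D4:**
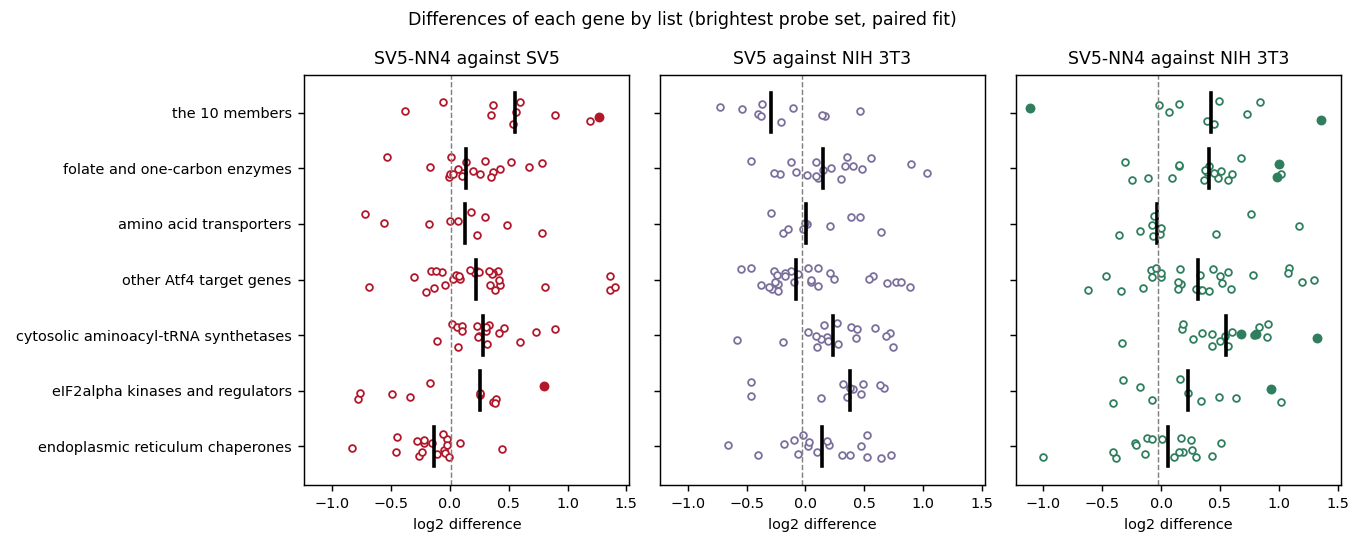
Log2 difference of each gene at its brightest probe set, by list, in the 3 comparisons. Black bars are list medians, dashed lines the median of all 12393 genes, and filled points passed an adjusted p under 0.05. The 10 members have medians of 0.55, -0.29 and 0.42, and the tRNA synthetases medians of 0.28, 0.23 and 0.55.

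Similarity of pattern was measured as the root mean square difference over the 9 arrays, in log2 units, after removing each gene's mean and the means of the replicate numbers. For Asns the nearest of 7141 genes was Iars at 0.109, one of the synthetases above, followed by the haem synthesis enzyme Urod at 0.119 and the glutathione peroxidase Gpx1 at 0.123. Asns itself varied by 0.374 on this measure, and the median gene lay 0.422 away. For Mthfd2 they were Cdca3, a cell division gene, at 0.114, the nuclear pore component Nup85 at 0.146 and the Rac activator Tiam1 at 0.148. For Phgdh they were Galns at 0.089, Tbl2 at 0.094 and Nelfcd at 0.096.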

How the data were processed

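RNA of 3 mouse fibroblast lines was hybridised to Affymetrix arrays, 3 arrays per line and 9 in all. The deposited values are intensities per probe set on a linear scale, made by the authors with RMA, per the submitters' processing notes, which give no version or settings. The deposited arrays do not share one distribution: medians were alike, but upper quartiles ran from 165.2 to 239.7. No source used here states how arrays were normalized against each other, and quantile normalization and centring were run as alternatives. The number of arrays limits the precision, and the labels do not say whether replicates are separate cultures, so the spread behind each p-value, that of these arrays, may be technical.

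From the deposited intensities, log2(intensity + 1) was computed for all 22690 probe sets. Platform annotation gave 1 symbol for 20393 of them, several for 691 and none for 1606. A RefSeq table of GRCm38.p6 held the gene IDs of 20364 in the first class. A gene outside the member list was represented by its brightest probe set (by mean over all arrays), for 12393 genes in all. Lines were compared with limma 3.58.1 in R 4.3.3, with 1 mean per line and the replicate number as a block (the paired fit), eBayes defaults and p-values adjusted over every probe set by Benjamini-Hochberg. Calls required an adjusted p under 0.05. The fit was tested on simulated arrays.

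Groups and replicate numbers came from the sample titles. The pairing by number comes from the data, not from the labels: after subtracting line means, arrays with the same number in different lines (9 pairs) had r of 0.26 to 0.84 across probe sets, against -0.73 to 0.11 for the 18 other pairs. The members, the 6 pathway lists and the marker lists were chosen with earlier results of these data known. Named genes were all members, Nras, up to 4 called genes per list and comparison, and the 3 genes most similar to Phgdh, Mthfd2 and Asns. Some uncalled genes of the lists were named outside this rule. Of these, Cth, Chac1, Trib3, Ndrg1, Eif2ak3, Impact, Eif2ak1, Ppp1r15a and Xbp1 were picked after their values were seen. Alternatives were the fit without the block, only 2 lines in the fit, another pseudocount, a filter on dim probe sets, quantile normalization, centring, an intensity trend, averaging the probe sets of each gene, and leaving out each array. Promoter windows are RefSeq sequence of GRCm38.p6.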

Additional observations from a re-analysis of the deposited data

How the results depend on the processing

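Without the replicate block, probe sets called were 19 in SV5-NN4 against SV5, 1 in SV5 against NIH 3T3 and 18 in SV5-NN4 against NIH 3T3, in place of 196, 14 and 375, and 0 member probe sets were called in place of 1, 0 and 2. With only the 2 lines of a comparison and the block these counts were 1504, 0 and 18, with 5, 0 and 0 member probe sets. In SV5 against NIH 3T3 the count was 0 with a pseudocount of 16, with quantile normalization and with centring, and 6 with an intensity trend. In SV5-NN4 against NIH 3T3 the member count was 0 with a pseudocount of 16 and 1 with the brighter probe sets only, with quantile normalization or with centring. Leaving out 1 array gave 14 to 950, 0 to 49 and 13 to 1239 called probe sets, and 0 to 4, 0 and 0 to 2 member probe sets. The highest probe set counts came without NIH 3T3 replicate 1. No called member changed sign under any alternative. Signs that turned among the member genes belonged to uncalled values: Shmt1 at -0.02 and -0.05 against NIH 3T3 (SV5, SV5-NN4) with quantile normalization and at 0.34 (SV5-NN4 against SV5) and -0.21 (SV5 against NIH 3T3) for the mean of its probe sets, Psat1 at 0.12 in SV5 against NIH 3T3 for that mean, and, with single arrays left out, Ddit3 (-0.17 to 0.69 in SV5-NN4 and -0.7 to 0.15 in SV5 against NIH 3T3), Atf4 (-0.29 to 0.2) and Shmt1 (-0.01 to 0.14) in SV5-NN4 against NIH 3T3, Phgdh (-0.31 to 0.15) and Psph (-0.03 to 0.46) in SV5 against NIH 3T3, and Shmt1 (-0.13 to 0.03) in SV5-NN4 against SV5. List medians that turned were those of other Atf4 targets in SV5 against NIH 3T3 (-0.13 to 0.06 with single arrays left out, 0.04 with the brighter probe sets only) and, in SV5-NN4 against NIH 3T3, chaperones (-0.19 to 0.23, and -0.01 with quantile normalization) and transporters (-0.12 to 0.1). The transporter median in SV5 against NIH 3T3, at 0, ran from -0.13 to 0.19 with single arrays left out and was 0.21 with the brighter probe sets only. The causes were not tested.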
